A study of Caenorhabditis elegans with 2 samples.

Results

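The gene zfp-1 (WBGene00006975) of the nematode Caenorhabditis elegans carried 3 of the 45 reproducible CEH-9 ChIP-seq regions, and these were all the reproducible regions of chromosome III. They lay in the longest 2 introns of the gene, before the coding exons of the long transcripts or before those of the short ones. Each region has a marked summit, nearly always its middle. All regions with a summit from 5 kb upstream to 2 kb downstream of the gene were taken from 4 deposited lists on build ce11. That window, chromosome III from 8786535 to 8808305, held 28 of the 70534 regions, of which 3 were in the reproducible set, 5 in the list of the pooled replicates, 10 in replicate 1 and 10 in replicate 3. The gene was chosen by the signal values of these same lists, so its values and counts are given as a description, with no test.

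CEH-9 is a homeodomain protein. It was mapped in whole L3 larvae, both sexes together, of strain OP202, whose genotype is unc-119(ed3) III with the transgene wgIs202. The transgene adds CEH-9 fused at its C terminus to a GFP-FLAG tag, so the regions are those of the tagged protein in this line. There was 1 group of 2 samples, biological replicates 1 and 3, with no second condition to compare. The antibody label of both samples is ceh-9, whereas a free-text label calls them input, and these 2 labels alone do not settle which holds. The file descriptions give regions of each replicate as called against a control, and the samples are treated here as CEH-9 ChIP. The reproducible set is the authors' selection by the irreproducible discovery rate, a measure of how well regions rank alike in replicates, and its members were the 45 strongest pooled regions.

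ZFP-1 is the worm homolog of mammalian AF10, a partner of the DOT1L enzyme that methylates histone H3 at lysine 79. It works with the worm enzyme DOT-1.1, binds promoters of widely expressed genes, limits their transcription, and has been linked to RNA interference and to lifespan through genes such as pdk-1. The long protein has N-terminal PHD zinc fingers, which bind histone H3, and the short protein lacks them while keeping the C-terminal part that contacts DOT-1.1. Between the long and the short form, the start that is used therefore decides whether a transcript encodes the PHD fingers.

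The gene runs on the plus strand of chromosome III from 8791535 to 8806305 (14771 bp; annotation of the same build, Ensembl release 115). Its 11 annotated transcripts, 10 of them coding, begin in 6 groups of starts when starts within 500 bp are joined. The most upstream start, 8791535, belongs to a long transcript and is called the long start here. Long transcripts encode 867 codons, with a start codon at 8798555. The short transcripts, F54F2.2c.1 and F54F2.2c.2, begin at 8799533 and 8802819, share a start codon at 8802954 and encode 635 codons. Both forms end at the same stop codon, so the short form lacks 232 codons. Transcript F54F2.2b.1 encodes 211 codons and ends before the start codon of the long form.

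The sequences within 100 bp of the 3 reproducible summits are shown because the account of base content turns on them. They are the plus strand of the RefSeq genome of the same build, with the longest run of purines (A or G) in capitals. The fourth sequence surrounds the strongest replicate 3 region of the gene, in a coding exon, for contrast. They span chrIII:8795757-8795957, chrIII:8800099-8800299, chrIII:8802053-8802253 and chrIII:8803680-8803880.
intron 4 region: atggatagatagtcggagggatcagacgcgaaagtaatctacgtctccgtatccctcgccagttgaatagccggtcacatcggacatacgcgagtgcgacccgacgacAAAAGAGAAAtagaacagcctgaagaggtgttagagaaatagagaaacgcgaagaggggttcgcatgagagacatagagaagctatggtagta
upstream intron 9 region: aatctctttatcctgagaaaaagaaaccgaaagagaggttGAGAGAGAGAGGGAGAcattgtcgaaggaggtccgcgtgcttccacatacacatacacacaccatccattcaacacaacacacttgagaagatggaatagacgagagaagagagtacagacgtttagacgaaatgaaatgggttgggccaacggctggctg
downstream intron 9 region: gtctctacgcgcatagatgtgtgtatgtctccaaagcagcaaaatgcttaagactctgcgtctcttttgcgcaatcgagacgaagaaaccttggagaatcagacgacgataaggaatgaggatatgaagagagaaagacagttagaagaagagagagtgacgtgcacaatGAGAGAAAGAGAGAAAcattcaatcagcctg
coding exon, replicate 3: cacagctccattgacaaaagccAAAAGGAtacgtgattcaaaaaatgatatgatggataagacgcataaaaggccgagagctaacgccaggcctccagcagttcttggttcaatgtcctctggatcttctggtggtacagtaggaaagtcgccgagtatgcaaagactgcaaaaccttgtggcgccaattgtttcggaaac

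The reproducible regions stood among the strongest of the pooled list, where the authors' signal value, which has no stated unit, ranged from 11.8 to 72.9 with a median of 14.1. The intron 4 region, from 8795699 to 8796014, had a pooled signal value of 34.6 and rank 22 of 10489 (q = 0.0189). The downstream intron 9 region, from 8801995 to 8802310, had 34.3 and rank 23 (q = 0.0189). Between them, the upstream intron 9 region, from 8800041 to 8800356, had 32.2 and rank 34 (q = 0.0746). The q-values are the authors' own, as the lists give them. The upstream intron 9 region thus belonged to the reproducible set with a q-value above 0.05, while 28 of the 45 members were below. The whole pooled list, which is labelled as peaks and background, had 28 of its 10489 regions below 0.05. Being listed there is therefore not by itself a call of binding. In the reproducible set the ranks were the same, 22, 34 and 23 of 45 along the gene. Signal values in that set ranged from 30.7 to 72.9 with a median of 34.3, so the zfp-1 values were at or near the median and in the low part of the range.

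**Figure D1:**
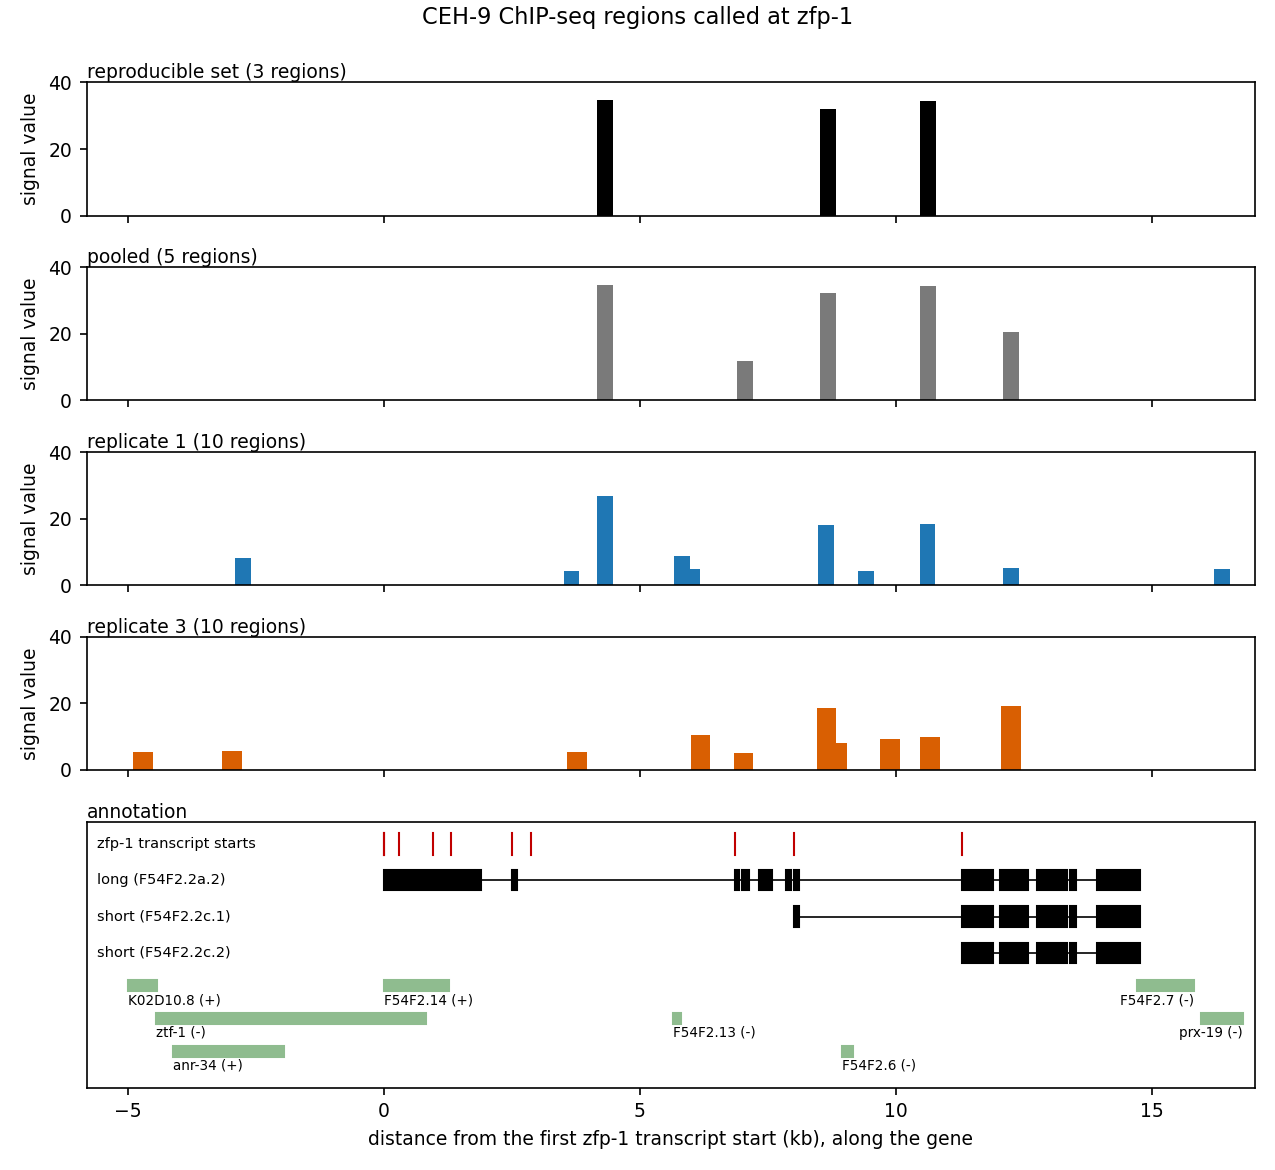
Signal value (no stated unit, vertical axes from 0) of each region in the window, drawn at its position in kb from the long start, for the 4 lists; below are the starts and exons of zfp-1 and the neighbouring genes with their strands. The 3 reproducible regions lie in the longest 2 introns, with signal values from 32.2 to 34.6, and no pooled region lies upstream of the long start.

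Introns 4 and 9 of transcript F54F2.2a.2, the longest 2 of its 13 introns with 4254 and 3179 bp, together made up 50.3% of the gene. They held all 3 reproducible summits, 3 of the 5 pooled summits, 7 of the 8 replicate 1 summits inside the gene and 6 of the 8 replicate 3 summits inside it. The intron 4 summit, 8795857, lay 4322 bp downstream of the long start and 2698 bp before the start codon of the long form. Its nearest annotated start was that of a long transcript at 8794409, 1448 bp upstream. Relative to the short starts it was at −3676 and −6962 bp, that is, upstream of both.

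The intron 9 summits lay between the 2 short starts. The upstream summit, 8800199, was 666 bp downstream of the short start at 8799533 and 2620 bp upstream of the one at 8802819. The downstream summit, 8802153, had the same distances in reverse order, 2620 bp downstream of the former and 666 bp upstream of the latter. From the long start they were 8664 and 10618 bp away. Each lay before the start codon of the short form, by 2755 and 801 bp, and after the first coding exons of the long form. Among the zfp-1 starts, the one nearest to the downstream summit, that of F54F2.2c.2, lay downstream of it, whereas those nearest to the other summits lay upstream. None of the 3 summits lay at the long start.

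The 3 reproducible summits were close together. They were 4342 and 1954 bp apart and spanned 6296 bp. Only these 3 of the 45 reproducible summits had another within 10 kb, and the closest pair elsewhere was 19560 bp apart. Chromosome III held 3 reproducible regions (6.67% of the set), where its share of the nuclear genome, 13.7%, would give 6.19, while 14.8% of pooled regions were on III. Because the reproducible set was the 45 strongest pooled regions, the 3 zfp-1 regions were by construction the strongest 3 pooled regions of the chromosome. The next one on III had rank 57 and a signal value of 29.6.

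Counted in the same window for each of 19973 protein-coding genes, 0.396% had at least 1 reproducible summit and 0.01% had at least 2. The latter were zfp-1, with 3, and F54F2.6, a gene inside its intron 9 whose 2 are the intron 9 regions of zfp-1. At least 1 pooled summit was found for 62.8% of genes and at least 5, the number at zfp-1, for 1.33%. A long gene has a long window, and 423 genes (2.12%) had a window at least as long as the 21771 bp of zfp-1. Among these, 1.18% had a reproducible summit and 25.5% had at least 5 pooled summits, with a median of 3. The count of pooled regions at zfp-1 was therefore near the background of long genes, and nothing is read from it. The same holds for the replicate lists, where 10 or more regions were found in 38.1% of long windows for replicate 1 and 43.3% for replicate 3, with medians of 8 and 9.

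The replicates gave unequal support to the 3 regions. A replicate region counted as matching when its summit lay within 200 bp. Signal values differ in range between the lists, 3.99 to 80.1 in replicate 1 and 4.41 to 30.2 in replicate 3, so ranks among the 30000 regions of each are set side by side, and each replicate is 1 sample without an error of its own.

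The upstream intron 9 region ranked high in both replicates. In replicate 1 it was called from 8800011 to 8800314 with a signal value of 18.2 and rank 154 (q = 0.00134). Replicate 3 had it from 8799988 to 8800371, with 18.6 and rank 23 (q = 0.0667), and listed a second, overlapping region from 8800188 to 8800571 with 8.08 and rank 6477. Of all pooled regions, 9 had a worse replicate rank of 154 or better, this one included. It had the lowest signal value of the 3 in the pooled list and the best ranked of the 3 when the worse replicate is taken.

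The downstream intron 9 region was strong in replicate 1 and moderate in replicate 3. Replicate 1 had it from 8801993 to 8802296 with 18.5 and rank 141 (q = 0.00134). In replicate 3 it ran from 8802009 to 8802392 with 10.01 and rank 2466 (q = 0.574). A worse replicate rank of 2466 or better was found for 138 pooled regions.

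The intron 4 region rested on replicate 1. There it was called from 8795702 to 8796005 with 26.7 and rank 32 (q = 0.00134), its summit 3 bp from the pooled one. Replicate 3 had no region within 200 bp, and its nearest summit was 544 bp away, in a region from 8795121 to 8795504 with 5.38 and rank 20877. The strongest pooled region of the gene was therefore the one without a matching replicate 3 region. Of the 45 reproducible regions, 40 were matched in both replicates, and which replicate the others lacked was not counted. Among all pooled regions, 4253 (40.5%) were matched in both.

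**Figure D2:**
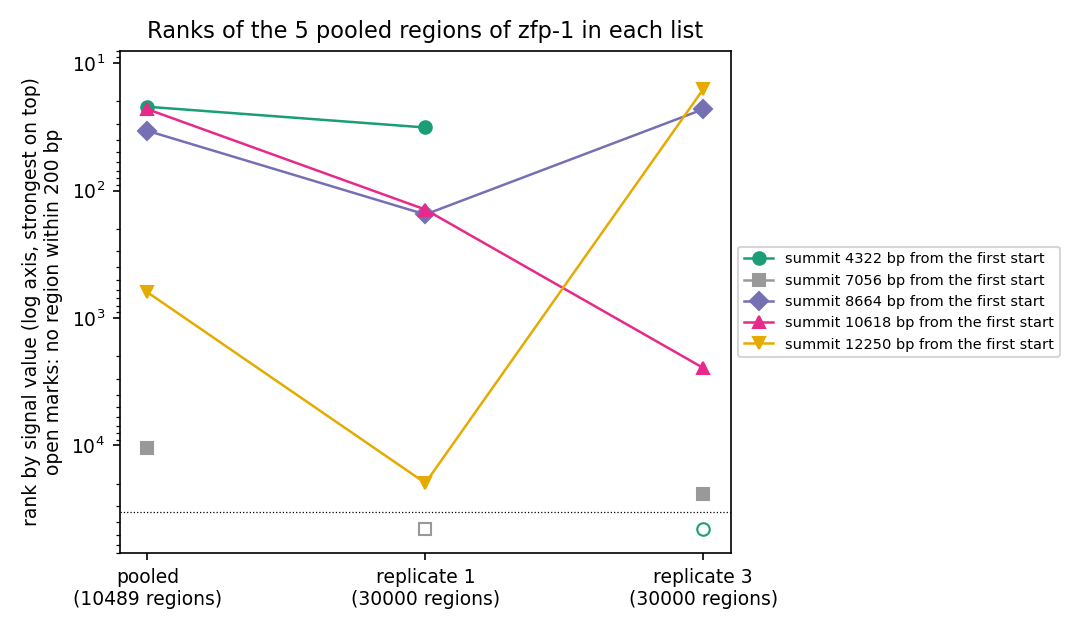
Rank by signal value (log axis, strongest at the top) of the 5 pooled regions of zfp-1 in the pooled list and in each replicate, with lines joining matched regions of neighbouring lists; open marks below the dotted line stand for no region within 200 bp. The region 8664 bp from the long start stays at rank 154 or better in each list, whereas that at 12250 bp goes from 19720 in replicate 1 to 16 in replicate 3.

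A coding exon region showed the opposite imbalance. Replicate 3 had its strongest zfp-1 region from 8803588 to 8803971, with 19.3 and rank 16 (q = 0.0233). Replicate 1 listed it from 8803625 to 8803928 with 5.17 and rank 19720 (q = 0.553). In the pooled list it ran from 8803627 to 8803942 with 20.5 and rank 629 (q = 0.61), 966 bp downstream of the short start at 8802819 and 12250 bp from the long start, and it was not in the reproducible set. Its worse replicate rank was equalled or bettered by 2670 pooled regions. Such disagreement was common at the top of the lists. Of the 45 strongest replicate 3 regions, 21 had no replicate 1 region within 200 bp and 12 matched one ranked 1000 or better. Of the 45 strongest nuclear regions of replicate 1, 18 had no replicate 3 region. The gene had 2 regions in the former 45 and 1 in the latter.

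**Figure D3:**
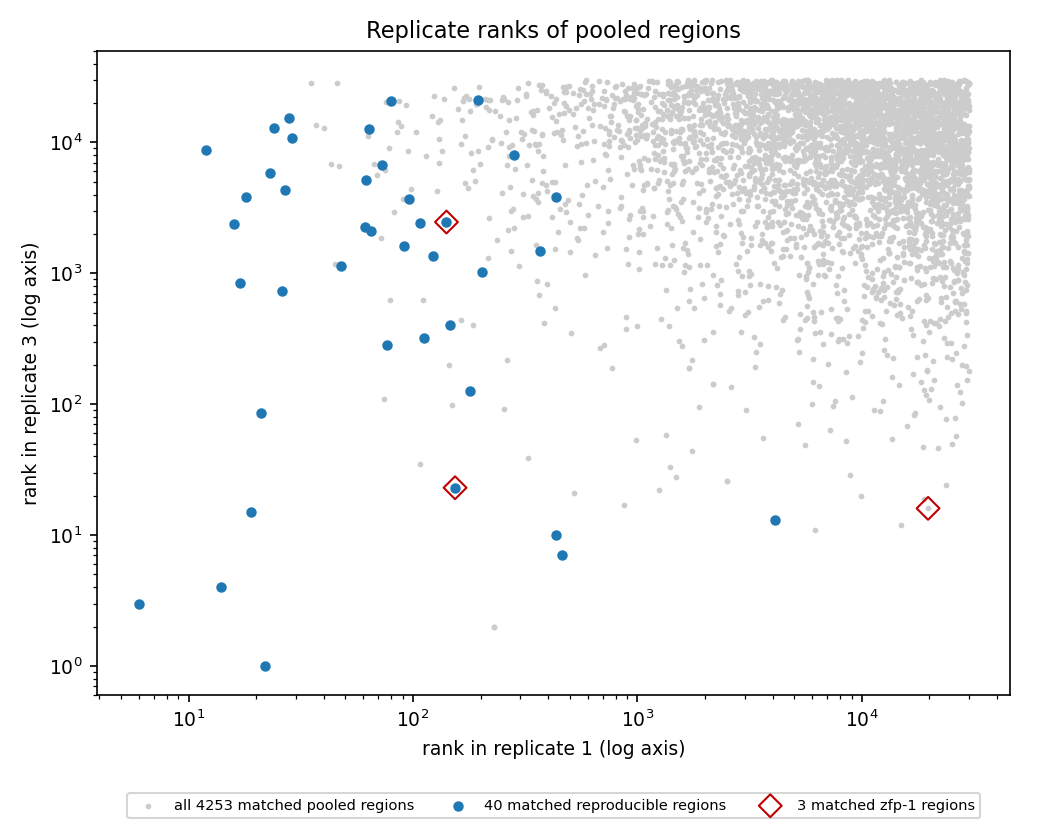
Rank in replicate 1 (horizontal, log axis) against rank in replicate 3 (vertical, log axis) for the 4253 pooled regions matched in both replicates, with the 40 matched reproducible regions in blue and the 3 matched zfp-1 regions ringed. The upstream intron 9 region (154, 23) is toward the lower left, where few pooled regions fall, and the coding exon region (19720, 16) is at the lower right; the intron 4 region has no replicate 3 rank and is not drawn.

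The last pooled region of the gene was weak. It ran from 8798433 to 8798748 with 11.9 and rank 10401 (q = 0.957), its summit in the first coding exon of the long form, 193 bp downstream of the start at 8798398 and 7056 bp from the long start. Replicate 3 matched it from 8798362 to 8798745 with 5.1 and rank 23832, and replicate 1 had no summit closer than 1027 bp. It stood near the bottom of the pooled list.

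The 28 regions fell at 14 sites, of which 5 had regions from both replicates, 5 from replicate 1 and not replicate 3, and 4 from replicate 3 and not replicate 1. At 2 of the 5 shared sites there was no pooled region, both in intron 4. One paired a replicate 1 region from 8797412 to 8797715 (4.77, rank 22839) with a replicate 3 region from 8797527 to 8797910 (10.4, rank 1938). The other paired the replicate 3 region 544 bp from the intron 4 summit with a replicate 1 region from 8795051 to 8795354 (4.13, rank 28461). Sites of a single replicate inside the gene included a replicate 1 region from 8797207 to 8797510 (8.78, rank 4906), its summit 19 bp from the start of F54F2.13, a non-coding RNA gene on the minus strand within intron 4. In intron 9, replicate 3 had a region from 8801223 to 8801606 (9.24, rank 3662) and replicate 1 had one from 8800792 to 8801095 (4.36, rank 26357). Median signal values over the window were 6.63 in replicate 1 and 8.66 in replicate 3, against 5.91 and 6.21 over the whole lists. A q-value under 0.05 was listed for 3 of the 10 replicate 1 regions and 1 of the 10 in replicate 3, against 3048 and 24 of 30000 in the full lists.

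Within 2 kb of the long start no summit was listed in any of the 4 lists. The first transcript of zfp-1 begins within ztf-1, a zinc finger gene on the minus strand that starts at 8792351, and 11 bp before the start of F54F2.14. The pooled summit nearest to the F54F2.14 start was the intron 4 summit, 4311 bp away. That summit also lay 3506 bp upstream of the ztf-1 start, so the intron 4 region can be placed relative to ztf-1 as well as zfp-1. Upstream of zfp-1 there were 3 replicate regions and no pooled one. Replicate 1 had 8788637 to 8788940 (8.08, rank 6485) and replicate 3 had 8788387 to 8788770 (5.84, rank 17757), both inside ztf-1 and the antisense gene anr-34, with summits 210 bp apart. The third, in replicate 3 from 8786648 to 8787031 (5.28, rank 21746), was inside K02D10.8. Downstream, replicate 1 had 8807750 to 8808053 (4.76, rank 22855) inside prx-19, a peroxisome biogenesis gene, and 556 bp from the start of F54F2.7, which overlaps the end of zfp-1.

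At the edges of the window, the region just inside was the K02D10.8 region in replicate 3, 305 bp from the upstream edge, and the prx-19 region in replicate 1, 403 bp from the downstream edge. Just outside, the pooled list had a region 345 bp beyond the upstream edge (12.6, rank 8424) and none for 36118 bp beyond the downstream edge. Replicate 1 had regions 459 bp (10.7, rank 2199) and 1683 bp (8.65, rank 5171) beyond the edges. In replicate 3 these distances were 522 bp (5.38, rank 20867) and 714 bp (11.5, rank 1011). None of these summits outside the window was in the reproducible set.

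F54F2.6, a short protein-coding gene on the minus strand from 8800486 to 8800701, is nested in intron 9 between its 2 reproducible regions. The upstream region had its summit 287 bp beyond the end of F54F2.6 and 502 bp from its start, closer than the 666 bp to the nearest zfp-1 start, and the downstream region had its summit 1452 bp upstream of the F54F2.6 start. Both regions can thus be placed relative to either gene, and the lists do not tell them apart.

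In base content, the 3 reproducible regions were rich in purines, as the sequences printed above show. The richer strand was purine at 64.2% of the 201 bases in the intron 4 region, 63.2% in the upstream and 63.7% in the downstream intron 9 region. The median was 54.2% over all pooled regions and also 54.2% over the 45 reproducible ones. Shares as high were found in 6.38%, 8.08% and 7.21% of pooled regions and in 11.1%, 17.8% and 15.6% of reproducible regions. The tetramer GAGA occurred 7, 12 and 13 times on both strands, overlapping copies counted, against medians of 2 in pooled and 4 in reproducible regions. As many copies were found in 4.32%, 0.858% and 0.686% of pooled regions, and in 33.3%, 15.6% and 11.1% of reproducible regions. Purine share and GAGA copies were chosen as measures after the sequences had been seen. The 2 regions outside the reproducible set had 59.7% purines with 5 copies (summit 8798591) and 55.7% with 1 copy (summit 8803785).

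**Figure D4:**
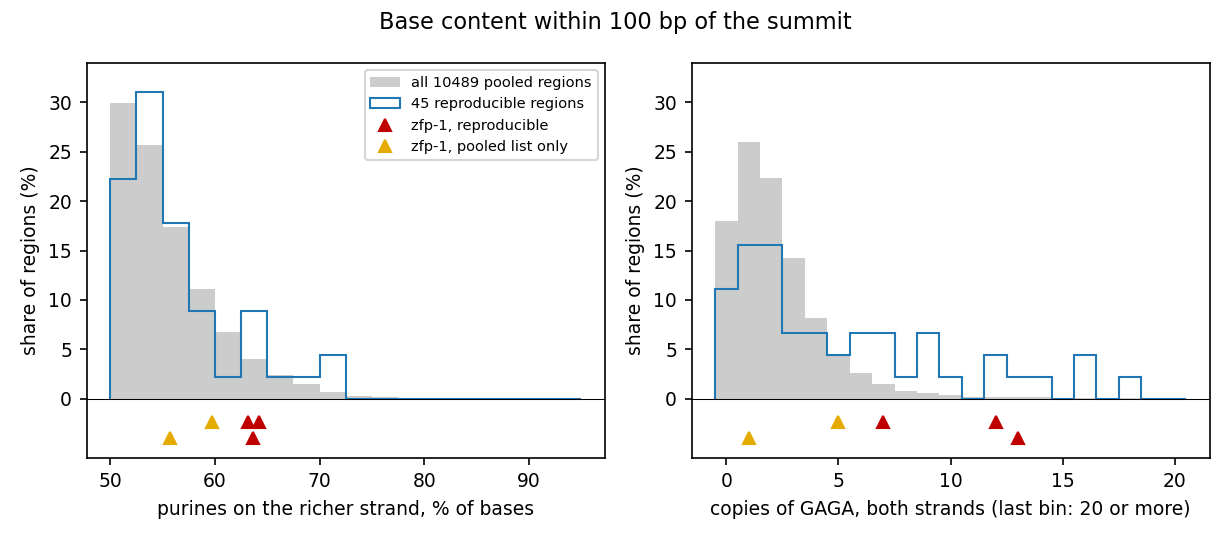
Share of regions (%, vertical axes) by purines on the richer strand (%, left) and by copies of GAGA on both strands (right) within 100 bp of the summit, for all 10489 pooled regions (grey) and the 45 reproducible regions (blue), with the zfp-1 regions as triangles drawn below 0 for clarity. The reproducible zfp-1 regions have 63.2% to 64.2% purines and 7 to 13 copies, above the medians of 54.2% and 2 of the pooled regions.

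The longest purine run was 10 bases in the intron 4 region, from 8 to 17 bp after its summit. It was 16 bases in each intron 9 region, ending 45 bp before the upstream summit and beginning 70 bp after the downstream one. Runs of at least 16 were found in 8.84% of pooled and 26.7% of reproducible regions, and runs of at least 10 in 47.0% and 64.4%. The octamers GAGAGAGA and GAGAAAGA were searched together on both strands. Both intron 9 regions held them. The upstream region had GAGAGAGA in overlapping copies at 8800139 to 8800146 and 8800141 to 8800148, and the downstream region had GAGAAAGA at 8802183 to 8802190 and 8802225 to 8802232, all on the plus strand. At least 1 of these octamers was present in 5.85% of pooled and 31.1% of reproducible regions, and neither was present in the intron 4 region.

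Homeodomain proteins commonly bind words with a TAAT core. TAATTA and TAATTG, searched on both strands, were absent from the 3 reproducible zfp-1 windows. The core alone was not counted, and the intron 4 sequence printed above holds TAAT before its summit. TAATTA is its own reverse complement and was present at the weak region at 8798591, in 6.57% of pooled regions and in 2.22% of reproducible ones. TAATTG was present in 12.8% and 17.8%. TGATAA, a word bound by GATA factors, was absent from the 3 windows as well and occurred in 15.1% and 4.44%. Other words with GATA were not searched. The intron 4 and downstream intron 9 sequences hold GATA on the plus strand, and the upstream intron 9 sequence holds it on the minus strand. The GC content was 48.8%, 46.3% and 43.8% along the gene, above the pooled median of 39.8%, and the reproducible median was 44.3%. Soft-masked bases, those marked as repeats in the genome file, made up 9.45%, 19.4% and 20.4%, against medians of 19.9% and 13.4%.

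Other genes linked to ZFP-1, chromatin or RNA interference were read in the same window around each gene. The list held 26 genes, namely ZFP-1 partners and targets with other genes of chromatin regulation or RNA interference. It was chosen with earlier results of these data known. Of the 26 genes, 1 had a reproducible summit, beside 0.396% of all coding genes, and nothing is read from a single gene. It was pdk-1 on chromosome X, a phosphoinositide-dependent kinase gene of insulin signalling that ZFP-1 and DOT-1.1 are known to repress. Its region had a pooled signal value of 33.4 and rank 25, 1842 bp from the start of the gene. The best ranks of its window, which may come from different regions, were 65 in replicate 1 and 2091 in replicate 3.

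Pooled summits were present for 21 of the 26 (80.8%), beside 62.8% of all coding genes. The median best rank of those 21 was 2635, beside 3896 over all coding genes with a pooled summit. Windows of the 26 ran from 7925 to 33206 bp, and a longer window can hold more summits. Neither comparison was matched for window length, so nothing is read from them. After pdk-1 the highest pooled signal values were 25.8 (rank 143) at cbp-1, a histone acetyltransferase gene, and 25.6 (rank 150) at daf-16, a FOXO transcription factor gene. For cbp-1 the summit was 184 bp from the start, and for daf-16 it was 21837 bp downstream of the start. The daf-16 window of 33206 bp held 9 pooled summits. No member other than daf-16 had at least 5. The gene of the direct partner, dot-1.1, had 3 pooled summits, the best at 14.4 and rank 4792. No pooled summit was listed for rde-1 and dcr-1 of RNA interference, the cyclin T genes cit-1.1 and cit-1.2, or wdr-5.1 of the COMPASS complex.

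The genes most like zfp-1 were sought among 76 other coding genes with a reproducible summit in their window, by the distance between log10 ranks of the strongest summit of the window over 3 lists. For zfp-1 these ranks were 22 in the pooled list, 32 in replicate 1 and 16 in replicate 3, and they come from different regions of the gene. F58H1.5 on chromosome V was nearest, with ranks 33, 108 and 21 (distance 0.569) and a reproducible region from 11958979 to 11959294 with 32.3. Y17D7C.2, also on V, followed with ranks 41, 96 and 58 (distance 0.783) and a region from 18723653 to 18723968 with 30.9. The other 3 were mom-1, a gene of Wnt secretion, lev-9, which acts in receptor clustering at neuromuscular junctions, and cest-16. They share a region on X from 6296425 to 6296740 with 40.8, and each had ranks 10, 21 and 86 (distance 0.827). Each of these genes had 1 reproducible region where zfp-1 had 3.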

How the data were processed

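CEH-9 ChIP-seq of 2 replicates was read from the deposited region lists on build ce11. Per the deposited file descriptions, the authors called regions on each replicate against the same control and on pooled replicates, then selected a reproducible set. The pooled list is labelled as peaks and background, the input to that selection. The signal value of a region (column 7) is the authors' and has no stated unit; column 9 holds the authors' −log10 of a q-value, converted here to q. The aligner, the caller and the threshold for selection were not given in the sources used here, and read depth was not analysed.

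Regions were ranked by signal value within a list, placed by summit on the Ensembl release 115 annotation, and matched within 200 bp. Coordinates are 1-based. Sequence came from the RefSeq genome of the same build. Words were counted within 100 bp of the summit. Scripts ran in Python 3.11.15 with pandas 2.3.3 and numpy 2.4.6 and were tested on simulated regions. The replicates share no number with another group. The ce10 lists gave only a count, spacings, signal values and ranks.

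The gene and the gene lists were chosen with earlier results of these data known. Named are zfp-1, genes overlapping its window, and listed genes with a reproducible summit or the 3 highest pooled values. The 5 genes most like zfp-1 by rank are also named. Other listed genes were named after their values were seen. Alternatives changed the window, the matching distance, the gene background, the word window, the build, the use of mitochondrial regions and each replicate.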

Additional observations from a re-analysis of the deposited data

How the results depend on the processing

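The share of coding genes with at least 2 reproducible summits was 0.236% among genes with a window at least as long, against 0.01% of all. In that long-window group the share is zfp-1 itself, as the window of F54F2.6 is 7216 bp. The share was 0.00501% from 1 kb upstream to the gene's end, 0.03% with 10 kb on either side and 0.0064% over all annotated genes. Leaving out mitochondrial regions put the intron 4 region at rank 18 in replicate 1, against 32. The window held 3 reproducible and 5 pooled regions under the gene alone, and 3 and 7 with 10 kb on either side. With a match in both replicates required, 3 of the 5 pooled regions qualified at 100 and 500 bp; asking for replicate 3 alone or replicate 1 alone gave 4 each. In ce10, 3 of 48 reproducible regions were on III, 4342 and 1951 bp apart, with signal values of 34.6, 34.3 and 34.3 and pooled ranks 22, 25 and 24, so the upstream intron 9 region (32.2, rank 34 in ce11) was nearly level with the downstream one; that count and the long-window background were chosen after seeing the data. No paired analysis was possible because there is a single group and no test. Read depth was not analysed, so a missing replicate region does not show that binding was absent.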
